A study of Rattus norvegicus with 4 samples.

Results

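The genes described here are 10 genes of the hypoxia-inducible factor (HIF) pathway, taken by symbol from tables of ribosome footprints in which 31038 rows were counted, and all 10 had a row. They are the oxygen-regulated subunits Hif1a and Epas1, their partner Arnt, the prolyl hydroxylases Egln1, Egln2 and Egln3, the ligase subunit Vhl, the asparaginyl hydroxylase Hif1an, and the secreted HIF targets Vegfa and Adm. Footprints, the fragments of messenger RNA that ribosomes protect, came from 4 libraries of rat myocardial cells in culture: 2 of cells treated with siRNA to eIF3m, a subunit of the eIF3 initiation complex (si3m), and 2 of cells treated with control siRNA (siNT). All cells were grown in medium with serum and treated with cycloheximide, which halts ribosomes, before lysis, and the labels name no low-oxygen treatment, age, sex or strain. The cell type is labelled NRVM, a usual short form for ventricular myocytes of newborn rats, but the protocols speak of embryonic myocardium. Since no label tells whether replicates were separate cultures, the p-values cover only the spread between these libraries, which may be technical.

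HIF is a transcription factor made of an alpha subunit, Hif1a or Epas1, and the stable beta subunit Arnt. With oxygen present, the Egln enzymes hydroxylate prolines of the alpha subunit, Vhl binds the hydroxylated form, and a ubiquitin ligase marks it for the proteasome, while Hif1an hydroxylates an asparagine and keeps coactivators away. When oxygen is short these steps slow, and HIF switches on genes of glucose use, blood vessel growth and vessel tone, a response known from the ischemic heart. Because control acts on the HIF protein, footprints report how much of each messenger RNA is being translated and do not report HIF protein or its activity.

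Depth followed the groups, with 8687598 and 6726969 counts in the si3m libraries and 3924434 and 3835750 in the siNT libraries. Eif3m, the siRNA target, averaged 164 ± 37.5 CPM (counts relative to library size after TMM scaling, which centres the fold changes) in si3m and 491 ± 57.3 CPM in siNT (SD, n = 2 each; log2 fold change -1.59, SE 0.11, edgeR adjusted p = 3.41e-08). With robust quasi-likelihood the fold was the same but the call was lost (SE 0.24, adjusted p = 0.0522; range over the 15 alternatives 5.52e-127 to 0.0522). The labelled cell type was weakly represented, with Tnni3, Myl7 and Nppa at 0 counts in all libraries and 8 to 12 of 18 cardiomyocyte markers at 6 counts or fewer in si3m and 13 in each siNT library. Cardiomyocyte markers summed to 588 and 602 CPM of the library total in si3m and 995 and 954 in siNT. Most of this sum came from the calcium pump gene Atp2a2, which other cells use too. Without Atp2a2 the sum was 120 and 140 in si3m and 136 and 141 in siNT. The largest of the rest was Tnnc1, at 69.6 and 74.3 CPM in si3m and 57.1 and 69.9 in siNT. Of the 18 markers, 5 lay higher in both si3m libraries than in both siNT libraries, 3 lower and 10 overlapped. Fibroblast markers (12 genes) summed to 16635 and 16361 CPM of the library total in si3m and 12570 and 12531 in siNT, and Tcf21 was at 0 counts throughout. Without the collagen gene Col1a1, the largest of them, the sum was 9972 and 9932 in si3m and 8627 and 8685 in siNT. Both si3m libraries lay above both siNT libraries for 9 of the 12 and below them for Fn1, the fibronectin gene, at 3668 and 3776 CPM in si3m and 4411 and 4394 in siNT. Smooth muscle and pericyte markers (7 genes) summed to 3882 and 3884 in si3m and 3685 and 3681 in siNT. Of these 7, 2 lay higher in both si3m libraries than in both siNT libraries, 3 lower and 2 overlapped. Acta2, the largest, had 2909 and 2889 CPM in si3m and 2426 and 2394 in siNT. Tagln went the other way, with 603 and 636 CPM in si3m and 763 and 772 in siNT. Macrophage markers (8 genes) summed to 15.4 and 16.4 in si3m and 32.1 and 36.5 in siNT. Most of this came from Cd14, at 14.0 and 14.3 CPM in si3m and 21.9 and 23.5 in siNT. Adgre1 had 4 and 0 counts in si3m and 24 and 34 in siNT. Of the 8 markers, 7 in each si3m library and 6 and 5 in siNT were at 6 counts or fewer. In all, 5 lay lower in both si3m libraries than in both siNT libraries, 0 higher and 3 overlapped. The part of these cell types in the results below was not tested, and in such bulk samples fewer cells of a type and less RNA per cell cannot be told apart.

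The question put to the pathway was which of its footprints change when eIF3m is reduced. Hif1a, Egln1 and Vegfa fell in si3m at an adjusted p under 0.05, and no member rose at that threshold. Hif1an and Adm lay higher in both si3m libraries than in both siNT libraries but did not pass. The counts of 8 of the 10 members sufficed for a test, and 3 of these 8 were lower at an adjusted p under 0.05, while 13.9% of all 12672 tested genes were lower and 14.0% higher. The median log2 fold change was 0.02 over the 8 tested members and 0.02 over all tested genes. The si3m and siNT values did not overlap for 5 of the 8, a separation shown by 63.9% of all tested genes. In either direction 37.5% of the 8 passed, against 27.8% of all tested genes. With at least 50 counts in 2 libraries, 3 of 7 members passed, and 3651 of 9509 genes in all.

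**Figure D1:**
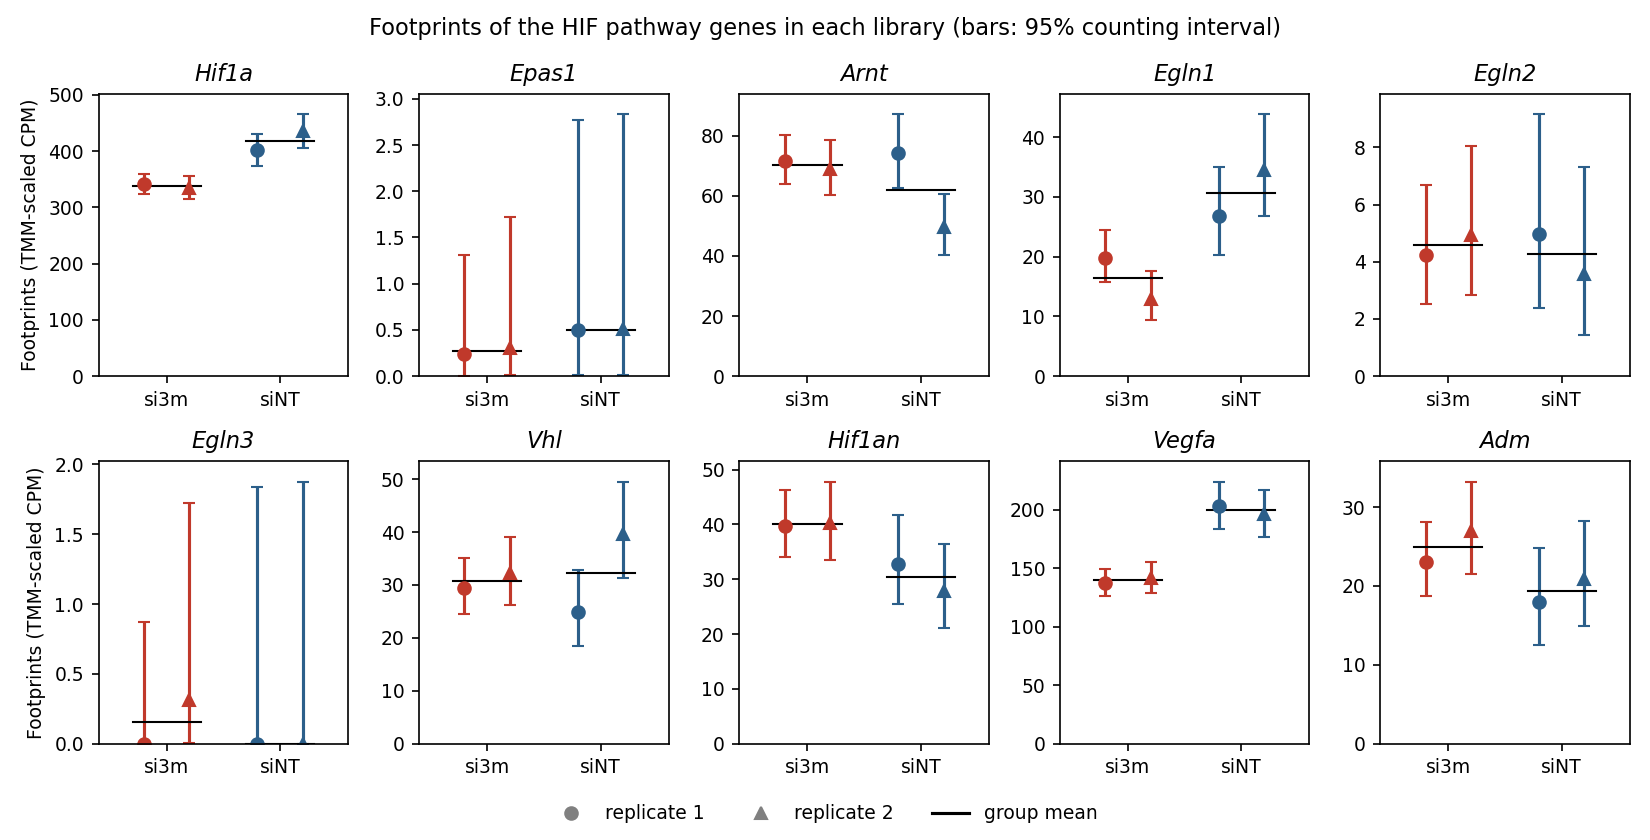
Footprints of the 10 HIF pathway genes, 1 panel each, in TMM-scaled CPM on axes that start at 0 and differ between panels. Red points are the 2 si3m libraries and blue points the 2 siNT libraries, black lines are group means, and bars are exact Poisson 95% intervals on fragments (counting error only). Hif1a, Egln1 and Vegfa lie lower in both si3m libraries than in both siNT libraries, and Epas1 and Egln3 stay at 1 fragment or none in every library.

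The start regions of the 3 members that fell, Hif1a, Egln1 and Vegfa, are shown here. HIF binds DNA at a core of the letters ACGTG or GCGTG, read on either strand (CACGT or CACGC on the other). The windows below run from 250 bases before the annotated gene start to 50 bases from it on, from RefSeq on the assembly GRCr8, which is not the build rn6 named for the deposited counts. They are Hif1a at chr6:98359648-98359947, plus strand, Egln1 at chr19:69804632-69804931, minus strand, and Vegfa at chr9:22452604-22452903, plus strand. Letters of the core are in capitals, and every sequence reads in the direction of its gene.
Hif1a: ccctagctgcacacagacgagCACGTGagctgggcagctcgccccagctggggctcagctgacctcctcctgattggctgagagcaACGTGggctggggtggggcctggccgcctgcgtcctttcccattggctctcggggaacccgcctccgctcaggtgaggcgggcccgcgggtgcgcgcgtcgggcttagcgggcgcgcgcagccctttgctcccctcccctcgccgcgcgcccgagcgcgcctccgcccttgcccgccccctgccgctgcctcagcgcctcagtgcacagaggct
Egln1: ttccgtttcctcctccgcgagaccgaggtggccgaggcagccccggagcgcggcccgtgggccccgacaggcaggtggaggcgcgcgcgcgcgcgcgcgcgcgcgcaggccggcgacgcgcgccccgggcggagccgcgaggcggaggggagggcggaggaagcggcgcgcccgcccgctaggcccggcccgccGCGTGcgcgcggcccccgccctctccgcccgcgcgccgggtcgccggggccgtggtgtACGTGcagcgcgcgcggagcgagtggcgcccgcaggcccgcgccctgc
Vegfa: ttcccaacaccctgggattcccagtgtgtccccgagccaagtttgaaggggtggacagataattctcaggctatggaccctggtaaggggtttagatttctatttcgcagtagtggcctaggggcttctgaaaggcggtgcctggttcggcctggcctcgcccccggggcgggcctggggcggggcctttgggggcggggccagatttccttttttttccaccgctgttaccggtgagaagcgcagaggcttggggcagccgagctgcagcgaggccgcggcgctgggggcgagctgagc

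Hif1a held the core at 228 and 164 bases before its start, the first of these being the palindrome CACGTG, which is read on both strands and is also an E-box. Egln1 held it 56 bases before its start and again from the third base of the gene. Arnt held 1 match, at 42 bases before its start, and neither of the 2 Vegfa windows in the table held any. In all, 3 of the 10 members (30%) had a match, against 41.6% of the 33469 promoters in the table. Members were counted by gene, over all their windows, and promoters by window. A match describes letters in this window and does not show that HIF is bound there. Bases outside the window were not searched, so the lack of a match does not show that a gene has no HIF site.

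Hif1a, the oxygen-regulated subunit present in most cells, was lower in si3m by 1.24-fold. It had 341 and 335 CPM in si3m, against 401 and 435 CPM in siNT. Both si3m values lay below both siNT values, and the si3m libraries differed from each other by less than the siNT libraries did. Group means were 338 ± 4.56 CPM in si3m and 418 ± 23.7 CPM in siNT (SD, n = 2 each), a log2 fold change of -0.31 (SE 0.058, 95% interval -0.43 to -0.18, edgeR adjusted p = 8.75e-04). Hif1a was the most deeply counted member, with 1613 to 2896 counts per library. The call held in each of 15 alternative settings (other scalings, filters and tools, or 1 library left out), with log2 values between -0.39 and -0.24. In the GRCr8 annotation Hif1a overlaps the long non-coding RNA LOC120103553, whose reads could not be told from its own without a known strand setting.

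Epas1, the alpha subunit best known from endothelial cells, was near absent, with 2 counts in each of the 4 libraries. Nearly all deposited counts were even, so 2 counts were taken as 1 fragment. This is below the limit of 3 fragments that a count of 0 allows, equal to 0.707 and 0.928 CPM in si3m and 1.49 and 1.52 CPM in siNT, so no fold change can be given. Endothelial markers were scarce as well: Cdh5, Emcn and Cldn5 were at 0 counts in all libraries, and the 10 markers summed to 71.6 and 75.5 CPM of the library total in si3m and 65.2 and 66.7 in siNT, mostly through Flt1. Hif3a, the remaining alpha subunit (named after its values were seen), had 0 counts in all libraries.

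Arnt, the common partner of the alpha subunits, had 71.7 and 69.0 CPM in si3m, against 74.2 and 49.8 CPM in siNT. The groups overlapped, and the siNT replicates stood apart, with non-overlapping exact Poisson 95% intervals of 62.7 to 87.1 and 40.4 to 60.7 CPM. The log2 fold change of 0.18 (SE 0.16, 95% interval -0.15 to 0.51) did not pass (adjusted p = 0.420). The 2 siNT libraries decide this value: without siNT replicate 1 Arnt was higher in si3m (log2 0.50, adjusted p = 0.0103), and without siNT replicate 2 the log2 value was -0.070 (adjusted p = 0.774), these being the extremes over the 15 alternatives.

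Egln1 (PHD2), the main oxygen sensor among the prolyl hydroxylases and itself a HIF target, showed the largest fold of the 3 falls, 1.86-fold. It had 19.8 and 13.0 CPM in si3m, against 26.9 and 34.6 CPM in siNT. The groups did not overlap, but within each group the replicates also differed visibly. Means were 16.4 ± 4.80 CPM in si3m and 30.7 ± 5.42 CPM in siNT (SD, n = 2 each), with a log2 fold change of -0.89 (SE 0.24, 95% interval -1.41 to -0.38, adjusted p = 0.0117). This result rested on 42 to 84 fragments per library, far fewer than for Hif1a. Without si3m replicate 2 the call was lost (log2 -0.62, adjusted p = 0.130), while the other 14 alternatives kept it, the adjusted p over all 15 ranging from 9.74e-05 to 0.130.

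The other prolyl hydroxylases were too sparse to say much. Egln2 (PHD1) had 36 and 32 counts in si3m, against 20 and 14 in siNT, or 4.24 and 4.95 CPM against 4.98 and 3.56 CPM. The groups overlapped, and its log2 fold change of 0.10 (SE 0.47) did not pass (adjusted p = 0.901). The 95% interval reached from -0.90 to 1.10, so these sparse counts were compatible with changes from 0.536-fold to 2.14-fold. In the GRCr8 annotation Egln2 overlaps Cyp2t1, which has its own row, and its count is uncertain for that reason too. Egln3 (PHD3), in many cells a strongly hypoxia-induced enzyme, had 0 and 2 counts in si3m and 0 in both siNT libraries, and could not be tested.

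Vhl, which recognises hydroxylated HIF, had 29.4 and 32.2 CPM in si3m, against 24.9 and 39.6 CPM in siNT. Both si3m values lay between the siNT values. The log2 fold change was -0.07 (SE 0.21, 95% interval -0.51 to 0.38, adjusted p = 0.849), and its sign turned with the library left out, from -0.36 without siNT replicate 1 to 0.31 without siNT replicate 2.

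Hif1an (FIH), the hydroxylase that blocks coactivator binding, had 39.8 and 40.2 CPM in si3m, against 32.9 and 27.9 CPM in siNT. Both si3m values lay above both siNT values. The log2 fold change of 0.40 (SE 0.17, 95% interval 0.03 to 0.76) did not pass (adjusted p = 0.0978). It passed in none of the 15 alternatives, where the adjusted p ran from 0.0501 to 0.507 and the log2 value from 0.20 to 0.52, always positive.

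Vegfa, the growth factor that drives vessel sprouting, fell 1.43-fold and was the most firmly called member. It had 138 and 142 CPM in si3m, against 203 and 196 CPM in siNT. The groups were far apart compared with their replicates, and no counting interval of a si3m library (126.6 to 155 CPM over both) reached one of a siNT library (177 to 224 CPM over both). Means were 140 ± 2.93 CPM in si3m and 199.6 ± 4.93 CPM in siNT (SD, n = 2 each), a log2 fold change of -0.52 (SE 0.071, 95% interval -0.67 to -0.37, adjusted p = 5.10e-05). The call held in each of the 15 alternatives (log2 -0.60 to -0.41).

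Adm encodes adrenomedullin, a vasodilating peptide and, like Vegfa, a textbook HIF target. It had 23.1 and 26.9 CPM in si3m, against 17.9 and 20.8 CPM in siNT. Both si3m values lay above both siNT values, the opposite side from Vegfa. Its log2 fold change of 0.36 (SE 0.22, 95% interval -0.10 to 0.83) did not pass (adjusted p = 0.239), and passed in none of the alternatives (0.146 to 0.651).

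**Figure D2:**
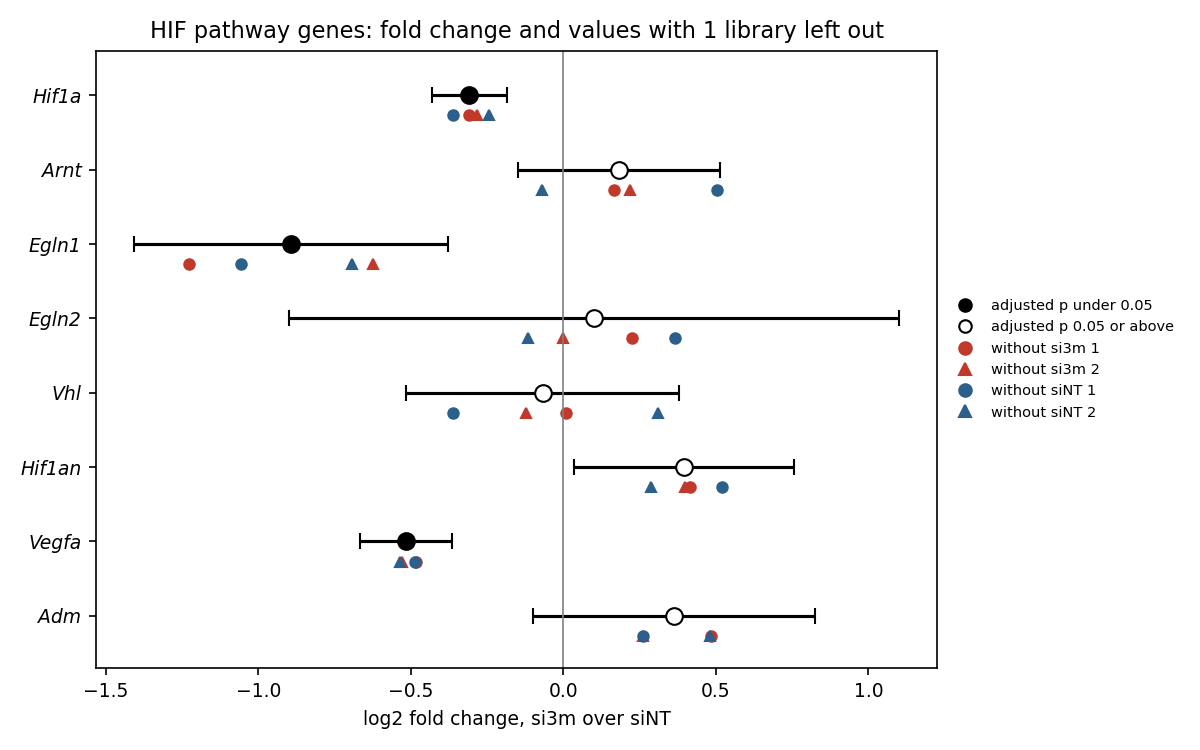
Log2 fold change (si3m over siNT) of the 8 tested HIF pathway genes, with 95% intervals as black bars and, below each, the 4 values obtained with 1 library left out (red without a si3m library, blue without a siNT library; circles replicate 1, triangles replicate 2). Filled black points mark Hif1a, Egln1 and Vegfa, whose adjusted p was under 0.05, and the left-out values of Arnt, Egln2 and Vhl fall on both sides of 0.

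Around the members, 88 further genes of the pathway were listed and 72 of them could be tested. Of these 72, 15 rose and 16 fell, with 41 not passing and a median log2 of -0.02. The share passing in either direction was 43.1% over these 72, which were listed with earlier results of these data known, and 27.8% over all tested genes. With at least 50 counts in 2 libraries, 32 of 65 of these genes passed, and 3651 of 9509 genes in all. Count depth was not matched between the listed genes and all tested genes. Of all tested genes 14.0% were higher and 13.9% lower, the shares to set beside the counts of every list below.

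Among 5 tested subunits and modifiers of the ligase that Vhl belongs to, 1 rose, 1 fell and 3 did not pass (median log2 -0.10), beside 27.8% of all tested genes past the threshold in either direction. Elob, the elongin B adaptor, rose 2.40-fold, with 38.2 and 34.3 CPM in si3m, against 14.4 and 15.8 CPM in siNT (log2 1.27, SE 0.20, adjusted p = 2.21e-04). Its partner Eloc (elongin C) had a log2 value of -0.10 (SE 0.15, adjusted p = 0.686), with overlapping groups. Cul2, the cullin scaffold, fell 1.22-fold, with 95.7 and 104.7 CPM in si3m, against 120.0 and 124.5 CPM in siNT (log2 -0.29, SE 0.092, adjusted p = 0.0278). Its call was lost without si3m replicate 1 (adjusted p = 0.277) and without siNT replicate 2 (0.0850), in a range of 0.00689 to 0.277 over the 15 alternatives. Rbx1, the RING subunit, had a log2 value of -0.30 (SE 0.15, adjusted p = 0.1495). Nedd8, the modifier that activates cullins, had 0.46 (SE 0.25, adjusted p = 0.183), and passed only without siNT replicate 1 (log2 0.86, adjusted p = 0.0101; range over the alternatives 0.0101 to 0.686); it overlaps Gmpr2, so its count is uncertain.

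Of 14 partners and cofactors of HIF, 12 were tested, and 6 fell, 1 rose and 5 did not pass. Their median log2 fold change was -0.42, beside 0.02 over all tested genes. Arnt2, the sister gene of Arnt, fell 1.61-fold, with 64.3 and 63.1 CPM in si3m, against 104.5 and 100.1 CPM in siNT (log2 -0.68, SE 0.11, adjusted p = 1.72e-04). Hsp90ab1 and Hsp90aa1, chaperones that hold the alpha subunit, had log2 values of -0.50 (SE 0.056) and -0.48 (SE 0.058), both past the threshold, and have pseudogene copies with which reads can be shared. Pkm, the pyruvate kinase gene whose M2 form has been described as a HIF coactivator, fell 1.33-fold, with 276 ± 1.76 CPM in si3m and 366 ± 7.79 CPM in siNT (SD, n = 2 each; adjusted p = 5.22e-05). Of 2 cofactors named after their values were seen, the acetyltransferase Ep300 fell 1.40-fold (log2 -0.48, SE 0.084, adjusted p = 4.56e-04). The other, Cited2, which competes with HIF for that coactivator, was the riser, 1.09-fold (log2 0.13, SE 0.040, adjusted p = 0.0298). That small rise did not pass with total count scaling (0.460), without si3m replicate 2 (0.175) or without siNT replicate 2 (0.0611), in a range of 0.00189 to 0.460.

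Glycolytic HIF targets split, with 3 of 16 tested genes higher, 4 lower and 9 not passing (median log2 -0.04; 19 listed). Pgk1, phosphoglycerate kinase and a classic HIF target, fell 1.49-fold, with 466 and 476 CPM in si3m, against 694 and 705 CPM in siNT (log2 -0.57, SE 0.049, adjusted p = 3.52e-07). Hk2, the inducible hexokinase, fell 1.52-fold (log2 -0.60, SE 0.087, adjusted p = 8.14e-05), and Eno1, enolase, fell 1.35-fold (log2 -0.43, SE 0.064, adjusted p = 1.16e-04). Pgam1, the mutase that acts between Pgk1 and Eno1 in the pathway, rose 1.28-fold, with 303 and 298 CPM in si3m, against 227 and 242 CPM in siNT (log2 0.36, SE 0.059, adjusted p = 2.87e-04). Neighbouring steps of the same pathway thus carried calls of opposite sign. Pgk1, Eno1 and Pgam1 have pseudogene copies, so some of their reads may belong elsewhere.

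Other HIF targets also went both ways, with 7 of 28 tested genes higher, 4 lower and 17 not passing (median log2 0.08; 33 listed). P4ha2, a collagen prolyl hydroxylase, rose 1.63-fold (log2 0.70, SE 0.088, adjusted p = 2.11e-05). Tfrc, the transferrin receptor, fell 1.94-fold, with 78.4 and 79.2 CPM in si3m, against 150.8 and 154.5 CPM in siNT (log2 -0.95, SE 0.087, adjusted p = 6.65e-07). Hmox1, heme oxygenase 1, fell 1.62-fold (log2 -0.70, SE 0.076, adjusted p = 4.47e-06). The fibroblast marker sums given above were also higher in si3m, and their part in the rises of this list was not tested.

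**Figure D3:**
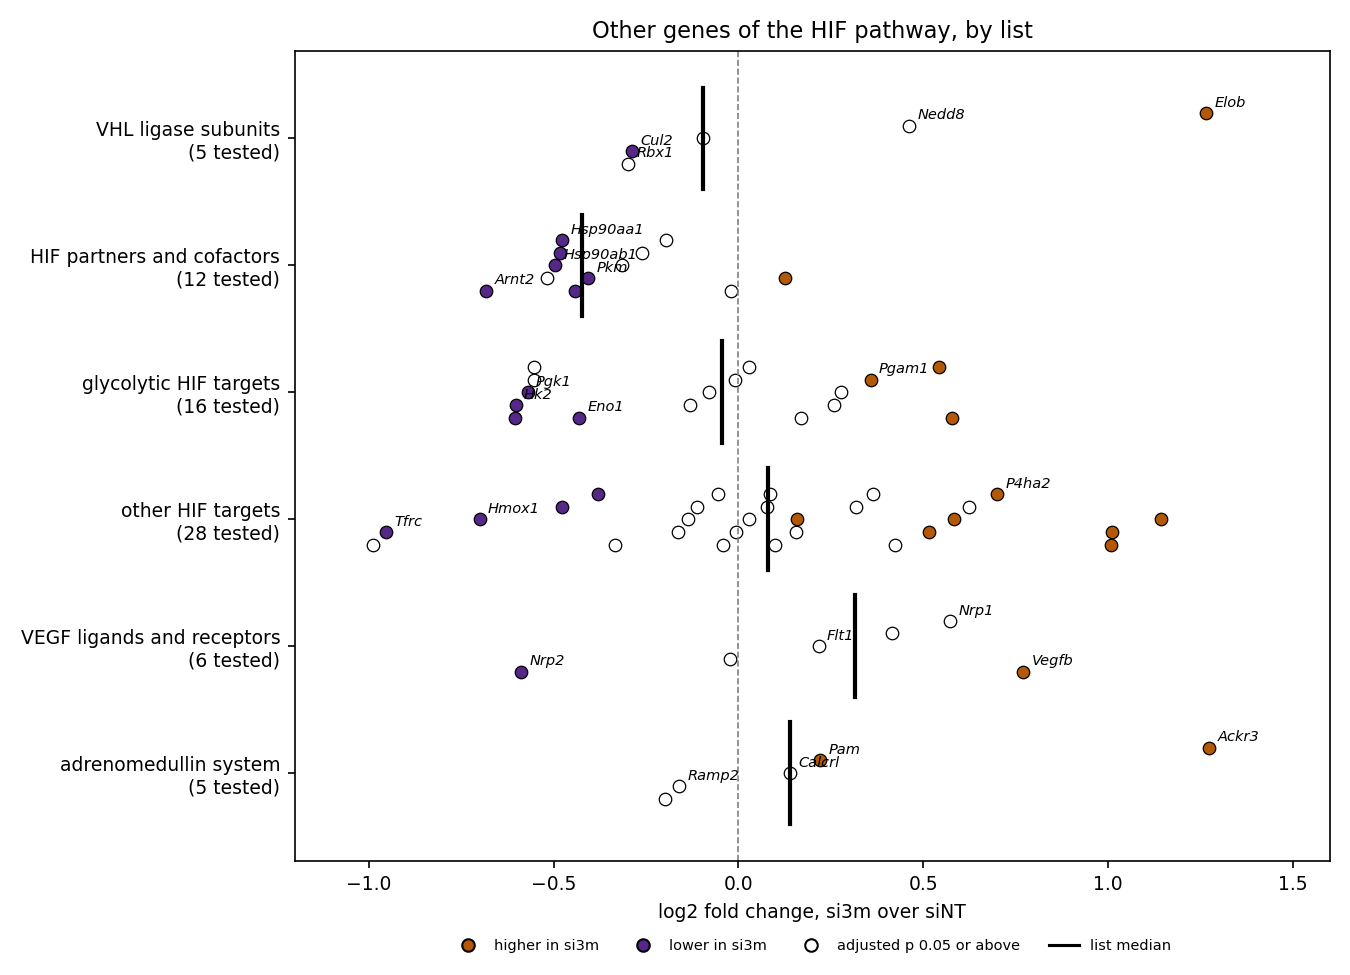
Log2 fold change (si3m over siNT) of the tested pathway genes outside the 10 members, in 6 lists from top to bottom, 1 circle per gene spread vertically for legibility. Orange circles rose and purple circles fell at an adjusted p under 0.05, white circles did not pass, and a black line marks each list's median. The partners and cofactors sit mostly left of 0 with a median of -0.42, while both lists of HIF targets spread to both sides.

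Among ligands and receptors of the VEGF family 6 of 9 could be tested, and 1 rose, 1 fell and 4 did not pass (median log2 0.32). Vegfb, a ligand of Flt1, rose 1.71-fold, on the other side of 0 from Vegfa, with 24.7 and 18.9 CPM in si3m, against 13.4 and 12.2 CPM in siNT (log2 0.77, SE 0.25, adjusted p = 0.0284). Without si3m replicate 1 that call was lost (log2 0.57, adjusted p = 0.292; range over the alternatives 0.0137 to 0.292). Nrp2, a neuropilin coreceptor, fell, with 523 and 526 CPM in si3m, against 806 and 770.3 CPM in siNT (log2 -0.59, SE 0.048, adjusted p = 2.13e-07). Its relative Nrp1 had 34.6 and 35.9 CPM in si3m, against 15.9 and 31.5 CPM in siNT. The siNT libraries disagreed, and its log2 value of 0.57 (SE 0.24, adjusted p = 0.0940) moved to 1.15 and passed without siNT replicate 2 (adjusted p = 3.37e-05). It also passed with no low-count filter (0.0260), the adjusted p over the alternatives ranging from 3.37e-05 to 0.617. Flt1 (VEGF receptor 1) had a log2 value of 0.22 (SE 0.12, adjusted p = 0.221). Kdr, the main signalling receptor of Vegfa, had 0 and 6 counts in si3m and 0 and 8 in siNT, and Flt4 at most 6 in any library, so neither could be tested. Flt1, Nrp1 and Hsp90aa1 each overlap a long non-coding RNA that has its own row, which leaves their counts uncertain. Cul2, Ep300, Pkm, Hmox1, Nrp2 and Pam (below) each overlap a gene for which no row was found, so their counts may include its reads.

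In the adrenomedullin system 5 of 8 genes were tested, and 2 rose and 3 did not pass (median log2 0.14). Pam, the enzyme that amidates and so activates the peptide, rose 1.17-fold, with 719.7 CPM in each si3m library, against 617.0 and 617.3 CPM in siNT (log2 0.22, SE 0.046, adjusted p = 0.00204). Ackr3, described as a scavenging receptor of adrenomedullin, rose 2.42-fold, with 58.2 and 71.2 CPM in si3m, against 26.9 and 26.4 CPM in siNT (log2 1.27, SE 0.16, adjusted p = 2.41e-05). The signalling receptor Calcrl had a log2 value of 0.14 (SE 0.29, adjusted p = 0.767) and its accessory protein Ramp2 -0.16 (SE 0.38, adjusted p = 0.794), both turning sign with the library left out. Ramp1 was at 0 counts in all libraries and Ramp3 at 2 counts or fewer. Mir210, a microRNA induced by HIF, had 0 counts in every library, under the limits of 0.707 to 1.52 CPM that a count of 0 allows. In the GRCr8 annotation Mir210 overlaps LOC102553043 and Mir3574, which have their own rows, so its count is uncertain. Rows of microRNA genes together took 1.02% and 1.19% of counts in si3m and 3.15% and 3.22% in siNT.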

How the data were processed

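The members and gene lists were chosen with earlier results of these data known. The deposited files hold whole-number counts of footprints per gene symbol, not normalized; the tools in the submitters' processing notes are HISAT2 2.2.1, Trimmomatic 0.40, featureCounts, DESeq2 and limma, with the build rn6 and without roles, annotation or strand setting. Between 94.9% and 97.3% of counts above 0 were even, so sampling noise was judged on fragments (counts divided by 2); reads carried no molecular identifiers, and intervals cover counting error only. RNA-seq was not used here, so values are footprint abundance, not translational efficiency. The median chi-square between replicates was 1.48 (si3m) and 1.40 (siNT) times that of counting noise, so all 4 libraries were kept.

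The fit over all genes used edgeR 4.0.16 (R 4.3.3) with the filterByExpr minimum count at 10, TMM scaling, quasi-likelihood F-test, two-sided, Benjamini-Hochberg adjustment over 12672 genes, threshold 0.05, no replicate block. The SE is the log2 fold change divided by the square root of F. CPM values use the TMM-scaled library size, or the library total where so stated, and are not corrected for gene length, so levels are not compared between genes. On counts simulated for this comparison over 12672 genes, changes of 1.5-fold were found for 30.0% of 60 genes, of 2-fold for 79.2% of 77 and of 4-fold for 95.2% of 63, with 4 of 12472 unchanged genes called. The simulation drew counts rather than fragments and gave all genes the common dispersion. It also changed far fewer genes than the 3528 called in the data. These shares therefore need not hold for the real comparison. Alternatives were RLE, upper quartile and total count scaling, DESeq2 1.42.0, no filter, at least 50 counts in 2 libraries, the replicate block, leaving out each library, halved counts, robust quasi-likelihood, thinned fragments and no microRNA rows. All members are named, with up to 4 tested genes of smallest p per list, receptors and ligase subunits that decide a statement, and Mir210; 1 gene taken by this rule is not reported here; 3 list genes matched a row through a synonym.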

Additional observations from a re-analysis of the deposited data

How the results depend on the processing

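Hif1a and Vegfa were called lower in all 15 alternatives and Egln1 in 14, and the number of members past the threshold was 3 in every alternative that kept all libraries and 2 to 4 with 1 library left out. With 1 library left out, the log2 value of Arnt ranged from -0.070 to 0.50, that of Egln2 from -0.12 to 0.37 and that of Vhl from -0.36 to 0.31, so the direction of these 3 was not settled, and the cause was not tested. Egln2 had no value with thinned fragments or at least 50 counts in 2 libraries. Eif3m kept its log2 value of -1.59 with robust quasi-likelihood but not its call (adjusted p = 0.0522). Genes past the threshold numbered 3528 in all (1771 higher and 1757 lower); total count scaling gave 1428 higher and 2217 lower and shifted the median log2 fold change by -0.08. The other pathway genes past the threshold numbered 31, and 26 to 36 with 1 library left out. With the replicate block 3 members, 33 other pathway genes and 3694 genes in all passed, and Nrp1 gained a call (adjusted p = 0.0229). The labels do not pair the samples, and differences between replicates 1 and 2 were uncorrelated between the groups (r = -0.012 across 9850 genes). Depth limits Epas1, Egln2 and Egln3 most.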
